A study of Mus musculus with 12 samples.

Results

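Rasgrp1, Rasgrp2, Rasgrp3, Itpka, Itpkb, Itpkc, Itpr1, Itpr2 and Itpr3 are the genes of 3 small families that act on diacylglycerol and inositol trisphosphate signals, and their response to methoxyacetic acid (MAA) was followed in a mouse Leydig cell line. The 9 genes were chosen by name, as the relatives of Rasgrp2 and Itpka, and those 2 had been selected on their MAA/control ratios because they rose at both concentrations and all times. Their ratios over control are therefore described without a test. Tests are given for the other genes and, for all genes, for differences between concentrations and times. The selection used the rise over control and not these differences. For Rasgrp2 and Itpka, however, the differences come from the same ratios on the same arrays, so that their tests are not independent of the selection. Of 41174 probes, which represented 16017 named genes and unnamed sequences, 14 represented 8 of the 9 genes: 5 probes for the Rasgrp genes, 2 for the Itpk genes and 7 for the Itpr genes. Itpkb had no probe named here.

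When phospholipase C cleaves the membrane lipid phosphatidylinositol bisphosphate, it releases inositol trisphosphate (IP3) into the cytoplasm and leaves diacylglycerol in the membrane. IP3 opens the IP3 receptors, calcium channels of the endoplasmic reticulum encoded by Itpr1, Itpr2 and Itpr3. The IP3 3-kinases, encoded by Itpka, Itpkb and Itpkc, phosphorylate IP3 and so end its action on these receptors. Diacylglycerol recruits some RASGRP proteins, a family of guanine nucleotide exchange factors that load RAS or RAP proteins with GTP. RASGRP2 acts mainly on RAP1 and responds to calcium. In Leydig cells, which make testosterone, calcium and lipid signals act beside cyclic AMP downstream of the luteinizing hormone receptor.

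TM3 cells are Leydig cells established from the testis of immature mice, so that all groups are 1 cell line. Cells had received 1 mM or 5 mM MAA, the active metabolite of ethylene glycol monomethyl ether, for 3, 8 or 24 h, and control cells had received culture medium alone for the same time. RNA of MAA-treated cells, pooled from 3 cultures, was hybridized against control RNA on 2 arrays per condition, 12 arrays in all, with the dyes swapped between them (MAA-treated RNA was green on replicate 1 and red on replicate 2). With 2 pools per condition the precision is limited by the number of arrays.

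The arrays of a condition were least alike at 1 mM 3 h, where the log2 ratios of the 2 arrays had a correlation across all probes of -0.134, compared with 0.133 and 0.309 at 1 mM 8 h and 24 h and 0.496 to 0.644 at 5 mM. Probes are not independent replicates, and among probes well above background the correlation of the 1 mM 3 h arrays was 0.154. Over all probes, the log2 ratio had a median of -0.10 at 5 mM 3 h and of between -0.07 and 0.03 in the other conditions. Of 9 Leydig cell markers, 3 were well above background in the control channel of all 12 arrays, namely Star, Cyp17a1 and Insl3, and 4 were so on none (Cyp11a1, Hsd3b1, Hsd3b6 and Lhcgr). Fibroblast or peritubular markers were well above background on all 12 arrays for 4 of 5 genes, Sertoli cell markers for 2 of 6, germ cell markers for 2 of 6, macrophage or lymphocyte markers for 2 of 4 and endothelial markers for 0 of 4. The summed control signal on the Aquantile scale ranged from 475 to 894 for the Leydig list and from 246000 to 474000 for the fibroblast list. It ranged from 7050 to 12100 for the Sertoli, 565 to 1780 for the germ cell, 49.9 to 110 for the macrophage or lymphocyte and 13.0 to 53.1 for the endothelial list. At a 5 mM time, 1 Leydig marker was called up and 1 down, 2 fibroblast markers were called down, and 1 Sertoli, 1 macrophage or lymphocyte and 1 endothelial marker were called up. At a 1 mM time, 2 Sertoli, 1 Leydig, 1 fibroblast, 1 macrophage or lymphocyte and 1 endothelial marker were called up and 0 markers down. Beside these counts, 6.05% of all probes were called up at any 5 mM time and 4.64% at any 1 mM time. At 5 mM 3, 8 and 24 h, 1.74%, 2.49% and 1.77% were called down. The part of the markers in the results below was not tested. Fewer cells with a transcript and less transcript per cell cannot be told apart in such RNA.

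The probes that carried the Rasgrp2 and Itpka signal are shown first, as the 30 bases at the 3′ end of each 60-base probe, since another Rasgrp2 probe gave no signal. The capitals mark the polyadenylation signal motif AATAAA.
Rasgrp2 probe: catatgtgcttAATAAAtgtctgttcaatt
Itpka probe: tagacttcctggtctaactcctgcactaca
The Rasgrp2 probe carries an accession that did not match RefSeq, and it was named through the probe table of the study. The Itpka probe was named through its RefSeq accession.

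The sequences upstream of the annotated starts are shown because Rasgrp2 and Itpka were the members with the highest ratios. They are the 250 bases before each start, from RefSeq on GRCm38.p6, plus strand, and the capitals mark the GC box GGGCGG on either strand. For Rasgrp2, first and second name the starts with a promoter window here. The annotated gene begins further upstream, at chr19:6398957.
Itpka, chr2:119742087-119742336: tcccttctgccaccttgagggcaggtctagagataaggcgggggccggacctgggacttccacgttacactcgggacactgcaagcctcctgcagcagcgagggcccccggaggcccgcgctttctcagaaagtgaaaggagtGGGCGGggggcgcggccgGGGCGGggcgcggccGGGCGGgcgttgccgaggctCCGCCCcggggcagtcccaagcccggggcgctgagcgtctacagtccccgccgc
Rasgrp2, first start, chr19:6399625-6399874: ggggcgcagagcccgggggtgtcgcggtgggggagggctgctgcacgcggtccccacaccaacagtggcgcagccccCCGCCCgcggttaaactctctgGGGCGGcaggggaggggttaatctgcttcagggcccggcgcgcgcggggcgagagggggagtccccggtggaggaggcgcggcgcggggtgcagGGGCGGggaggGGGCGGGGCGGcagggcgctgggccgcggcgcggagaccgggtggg
Rasgrp2, second start, chr19:6401455-6401704: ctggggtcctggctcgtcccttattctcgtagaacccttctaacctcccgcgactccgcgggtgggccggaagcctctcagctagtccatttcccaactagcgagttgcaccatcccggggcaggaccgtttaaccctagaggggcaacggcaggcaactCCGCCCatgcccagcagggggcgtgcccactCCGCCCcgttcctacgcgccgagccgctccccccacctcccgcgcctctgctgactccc
The window searched was 300 bases, with 50 bases after the start added. It held 4 GC boxes for Itpka and 6 and 2 for the first and second start of Rasgrp2, where overlapping matches were counted separately. Of 32851 promoter windows in the RefSeq table, 35.7% held at least 1 match, 5.49% at least 4 and 1.35% at least 6.

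Matching by symbol gave 10 promoter windows for 8 of the 9 genes, and 7 of the 10 held a GC box. Itpr2 had 5 matches, Itpkc 2, and Rasgrp1 and Itpr3 1 each, whereas the windows of Itpkb and Rasgrp3 had 0. The Rasgrp2 window at the first start was 80% G or C and that of Itpka 73.7%, beside 73.3% for Itpr2 and a median of 52.7% over all windows. The EGR site GCGTGGGCG and the cyclic AMP response element TGACGTCA, each searched on both strands, matched 0 of the 10 windows and 0.612% and 1.79% of all windows. These matches describe letters in the window and not binding.

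Rasgrp2, the exchange factor for RAP1, had higher signal in MAA-treated than in control cells on all 12 arrays. At 5 mM, the log2 MAA/control ratio of replicates 1 and 2 was 1.44 and 1.09 at 3 h, 2.37 and 2.32 at 8 h, and 1.68 and 1.5 at 24 h. At 1 mM, it was 1.29 and 0.95 at 3 h, 1.90 and 1.82 at 8 h, and 1.37 and 1.23 at 24 h. The highest ratios were thus those of 8 h at both concentrations, and no 8 h array overlapped those of 3 h or 24 h at the same concentration. The mean ratios corresponded to 2.40-, 5.08- and 3.00-fold at 5 mM and 2.17-, 3.63- and 2.46-fold at 1 mM (SE 0.111 on the log2 scale, n = 2 arrays per condition). The processed signal was between 197 and 973 in the control channel and between 423 and 3080 in the MAA channel, and both channels were well above background on all 12 arrays. The second Rasgrp2 probe, with a RefSeq accession, was well above background on 0 arrays, at signals of 1.47 to 5.53, so that it gave no information on the change.

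Itpka, the IP3 3-kinase known best from neurons, also had higher signal in MAA-treated cells on all 12 arrays. At 5 mM, the log2 ratio of replicates 1 and 2 was 2.28 and 2.09 at 3 h, 2.50 and 2.58 at 8 h, and 1.70 and 1.84 at 24 h. At 1 mM, it was 1.08 and 0.94 at 3 h, 1.06 and 1.17 at 8 h, and 1.14 and 1.18 at 24 h. Every 5 mM array lay above every 1 mM array, and the 1 mM ratios were nearly level over time. The mean ratios corresponded to 4.55-, 5.81- and 3.41-fold at 5 mM and 2.01-, 2.16- and 2.24-fold at 1 mM (SE 0.0748 on the log2 scale, n = 2). Both channels were well above background on all 12 arrays, with processed signals of 252 to 613 for control and 560 to 3470 for MAA.

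**Figure D1:**
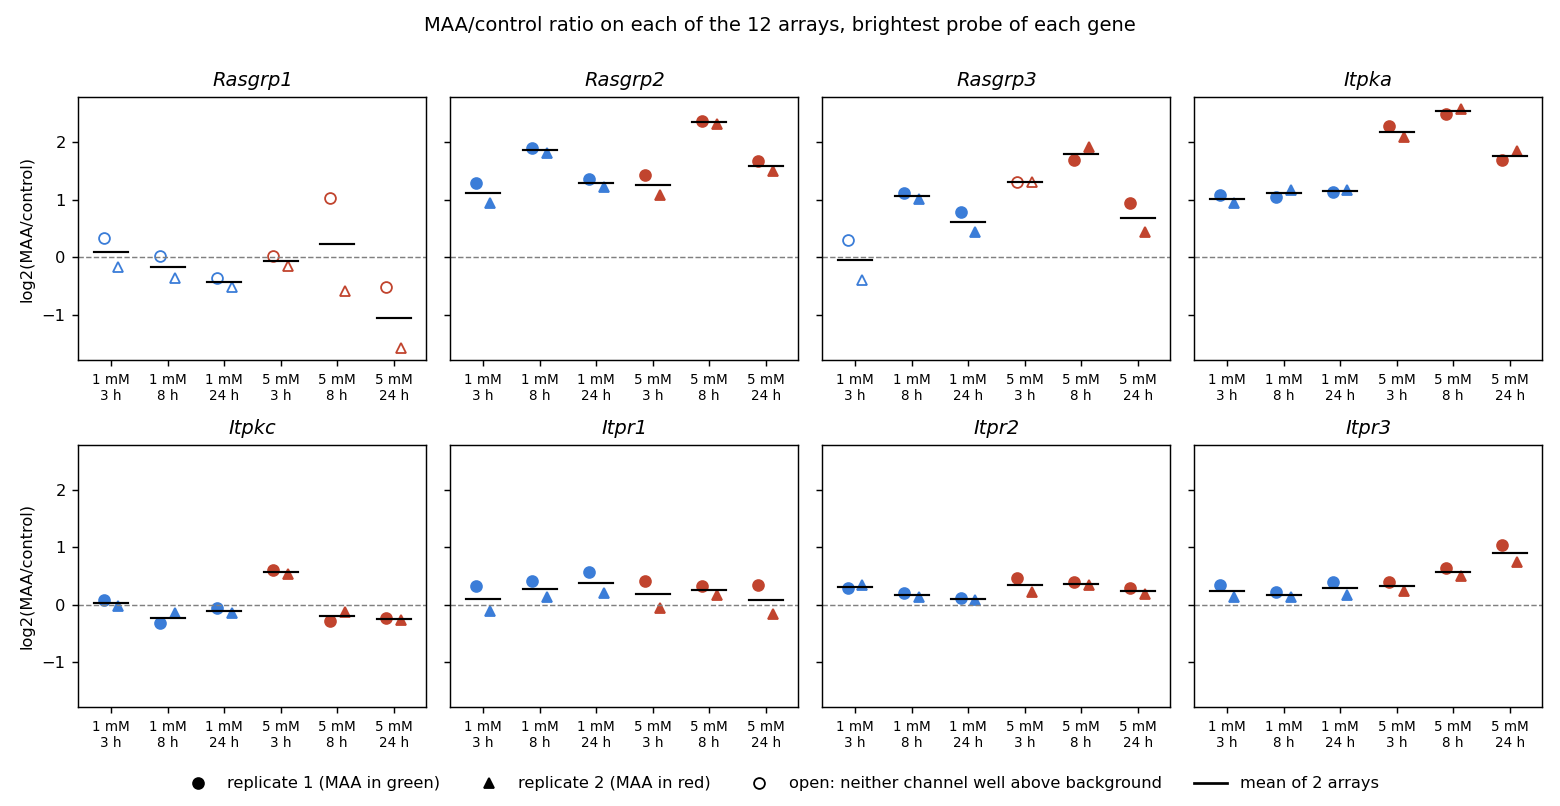
Log2(MAA/control) on each array for the brightest probe of the 8 genes, by concentration and time; circles are replicate 1, triangles replicate 2, bars the mean of 2 arrays, and open symbols arrays where neither channel was well above background. Rasgrp2 and Itpka lie above 0.9 on all 12 arrays, whereas the ratios of Itpkc and the Itpr genes stay between -0.32 and 1.04.

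The rise of Rasgrp2 and Itpka in all 6 conditions is what they were picked on, and nothing is read from it. For comparison, 98 probes, 0.238% of all, were called up in all 6 conditions. The lowest condition mean of the picked genes was 1.01 (Itpka at 1 mM 3 h). Rasgrp3, the member with the next highest ratios, had -0.04 there, with neither channel well above background, and a mean of 0.61 at 1 mM 24 h, which was not called. After normexp and loess, the 1 mM 3 h means were 0.60 for Rasgrp2 and 0.65 for Itpka, against 1.12 and 1.01, and averaging both Rasgrp2 probes gave 0.35 to 1.15 over the 6 conditions.

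Among the other Rasgrp genes, which also encode RAS and RAP exchange factors, Rasgrp3 increased at 8 h of both concentrations, and Rasgrp1 was not measurable. At 5 mM, the Rasgrp3 log2 ratio of replicates 1 and 2 was 1.31 and 1.32 at 3 h, 1.70 and 1.91 at 8 h, and 0.94 and 0.44 at 24 h. At 1 mM, it was 0.30 and -0.38 at 3 h, 1.11 and 1.02 at 8 h, and 0.78 and 0.45 at 24 h. All arrays of 8 h were above 1, and those of 1 mM 3 h lay on both sides of 0. Rasgrp3 was called up at 5 mM 8 h (3.5-fold, limma adjusted p = 2.41e-04) and at 1 mM 8 h (2.10-fold, limma adjusted p = 0.0186), whereas at 24 h the 5 mM ratio of 0.69 (limma adjusted p = 0.0226) was below the 2-fold threshold. At 5 mM 3 h it was also called (limma adjusted p = 0.00152), but neither channel was well above background on either array, so that no fold is given. At 5 mM 8 h the control was well above background on 1 of 2 arrays. After normexp background correction and loess, which raises low signals, the ratios were 0.03 at 5 mM 3 h, 0.71 at 5 mM 8 h and 0.44 at 1 mM 8 h, and none of these calls held. Leaving out either 1 mM 8 h array also ended the 1 mM call, with the remaining array at 1.02 or 1.11. Rasgrp1 had 2 probes, both well above background on 0 of 12 arrays in either channel, and was called in 0 conditions.

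Itpkc, the broadly expressed IP3 3-kinase, moved little and in a different order over time from Itpka. The 5 mM log2 ratio of replicates 1 and 2 was 0.61 and 0.54 at 3 h, -0.28 and -0.12 at 8 h, and -0.23 and -0.26 at 24 h. At 1 mM, it was 0.09 and -0.02 at 3 h, -0.32 and -0.13 at 8 h, and -0.06 and -0.14 at 24 h. The 5 mM 3 h arrays stood above the 10 others, of which the highest was at 0.09. The 3 h increase of 1.49-fold (limma adjusted p = 9.74e-04) was below the 2-fold threshold, and the decrease at 5 mM 24 h was 1.18-fold (limma adjusted p = 0.0376). Signals of Itpkc were between 198 and 514 in both channels, well above background on all arrays.

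The IP3 receptor genes, the calcium release channels themselves, changed less than 2-fold in all 6 conditions by their brightest probes. For Itpr3, the 5 mM log2 ratio of replicates 1 and 2 was 0.41 and 0.25 at 3 h, 0.63 and 0.5 at 8 h, and 1.04 and 0.75 at 24 h, and the 1 mM arrays lay between 0.13 and 0.41. The 5 mM arrays at 8 h and 24 h therefore did not overlap those of 1 mM. The increase was 1.48-fold at 8 h (limma adjusted p = 0.00426) and 1.86-fold at 24 h (limma adjusted p = 5.22e-04), below the 2-fold threshold; without replicate 2 of 5 mM 24 h, the remaining array gave 1.04 and a call. Itpr3 was bright, with signals of 4490 to 18000.

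Itpr2 had 4 probes. The brightest gave 0.20 to 0.48 on the 6 arrays of 5 mM and 0.08 to 0.34 on those of 1 mM, and the next brightest 0.15 to 0.37 and -0.01 to 0.26. For the brightest probe, the increase was 1.27-fold at 5 mM 3 h (limma adjusted p = 0.0102) and 1.29-fold at 5 mM 8 h (limma adjusted p = 0.00614). The other 2 probes were not well above background in any control channel at 3 h. One of these was called up at 5 mM 3 h, with arrays at 1.10 and 0.90 and at least 2.00-fold higher signal in MAA-treated cells (limma adjusted p = 0.0112), where the bound takes the higher of the control signal and the lowest signal well above background. The bright probes gave 0.35 and 0.27 in that condition, so that the probes of Itpr2 disagreed in size.

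Itpr1, the receptor isoform abundant in neurons and smooth muscle, was bright on both probes, with signals of 5940 to 30600, and called in 0 conditions. Its brightest probe was between -0.15 and 0.42 at 5 mM and between -0.11 and 0.57 at 1 mM. Replicate 1 was higher than replicate 2 in 6 of 6 conditions for both probes, by a mean of 0.36 for the brightest and 0.14 for the second, and the replicate number was also the dye orientation. Its lowest adjusted p was that of the second probe at 1 mM 24 h, with a ratio of 0.33 (limma adjusted p = 0.0638).

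By the brightest probe, 1 of the 6 genes with a probe that were not picked on their ratios (Rasgrp3) was called up at a 5 mM time, and Rasgrp3 was also the gene called up at 1 mM. Genes were called where the unadjusted limma p was under 0.005 and the change exceeded 2-fold for 5 mM, or 1.5-fold for the lower concentration. Of all probes, 2.02%, 3.06% and 3.85% were called up at 5 mM 3, 8 and 24 h, and 1.32%, 1.72% and 3.26% at 1 mM. At any time, 6.05% of all probes were called up at 5 mM and 4.64% at 1 mM. None of the 6 genes was called down, where 1.74%, 2.49% and 1.77% of all probes were at 5 mM and 0.627%, 0.656% and 1.41% at 1 mM. With no fold threshold, 4 of the 6 genes passed at a 5 mM time (Rasgrp3, Itpkc, Itpr2 and Itpr3), all of them upward, and 2 at a 1 mM time (Rasgrp3 and Itpr2), beside 19.5% and 9.48% of all probes that passed upward at any time. The median SE of a log2 ratio over all probes was 0.15.

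The difference between concentrations was asked separately, since the pick had used the rise over control and not the difference between 5 mM and 1 mM. For Itpka and Rasgrp2, it is still taken from the ratios on which they were picked. Both concentrations of a time may share control cultures. Itpka responded more to 5 mM than to 1 mM at each time. The differences of Itpkc at 3 h and Itpr3 at 24 h also passed the test, but not after centring each array on its median. For Itpka, the 5 mM minus 1 mM difference in log2 ratio was 1.18 at 3 h (SE 0.106, limma adjusted p = 0.00594), 1.43 at 8 h (SE 0.106, limma adjusted p = 0.00104) and 0.61 at 24 h (SE 0.106, limma adjusted p = 0.0149). Arrays of the same slide and dye gave 1.2 at 3 h, 1.44 and 1.41 at 8 h, and 0.56 at 24 h. After centring each array on its median, the 24 h difference was 0.57 and did not pass (limma adjusted p = 0.0888). The 3 h and 8 h differences passed the test in 12 of 12 fits with 1 array left out, and the 24 h difference in 8 of 12. Of all probes, 3.4% differed at 3 h, 10.1% at 8 h and 8.41% at 24 h (limma adjusted p under 0.05).

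For Rasgrp2, the same difference was 0.14 at 3 h (95% confidence interval -0.22 to 0.51), 0.49 at 8 h (0.12 to 0.85, limma adjusted p = 0.103) and 0.29 at 24 h (-0.08 to 0.65), and it did not pass at any time. At 8 h the interval lay above 0, from 0.12 to 0.85 on the log2 scale, but it takes no account of the number of probes tested. Within a slide and dye orientation, the Rasgrp2 difference was 0.15 at 3 h, 0.47 and 0.51 at 8 h, and 0.3 at 24 h. A higher Rasgrp2 response to 5 mM at 8 h is therefore not excluded by the adjusted test. With the replicate number or the slide as a block, Rasgrp2 was added to the genes that differed. For Itpkc, the difference at 3 h was 0.54 (SE 0.101, limma adjusted p = 0.0362), and for Itpr3 at 24 h it was 0.61 (SE 0.145, limma adjusted p = 0.0446). The difference of Rasgrp3 at 3 h, 1.35 (SE 0.254, limma adjusted p = 0.0358), passed the test but rests on signals that were not well above background in either channel, and was 0.09 (limma adjusted p = 0.86) after normexp and loess. Within slide 1, the differences were 0.52 for Itpkc, 0.64 for Itpr3 and 1.00 for Rasgrp3. After centring each array on its median, the Itpkc difference was 0.64 and did not pass (limma adjusted p = 0.0951). That of Itpr3 was then 0.57 and did not pass either (limma adjusted p = 0.105). The differences of Itpkc, Itpr3 and Rasgrp3 held in 0 of 12 fits with 1 array left out (limma adjusted p from 0.055 to 0.236), so that each of the 12 arrays was needed for these calls.

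**Figure D2:**
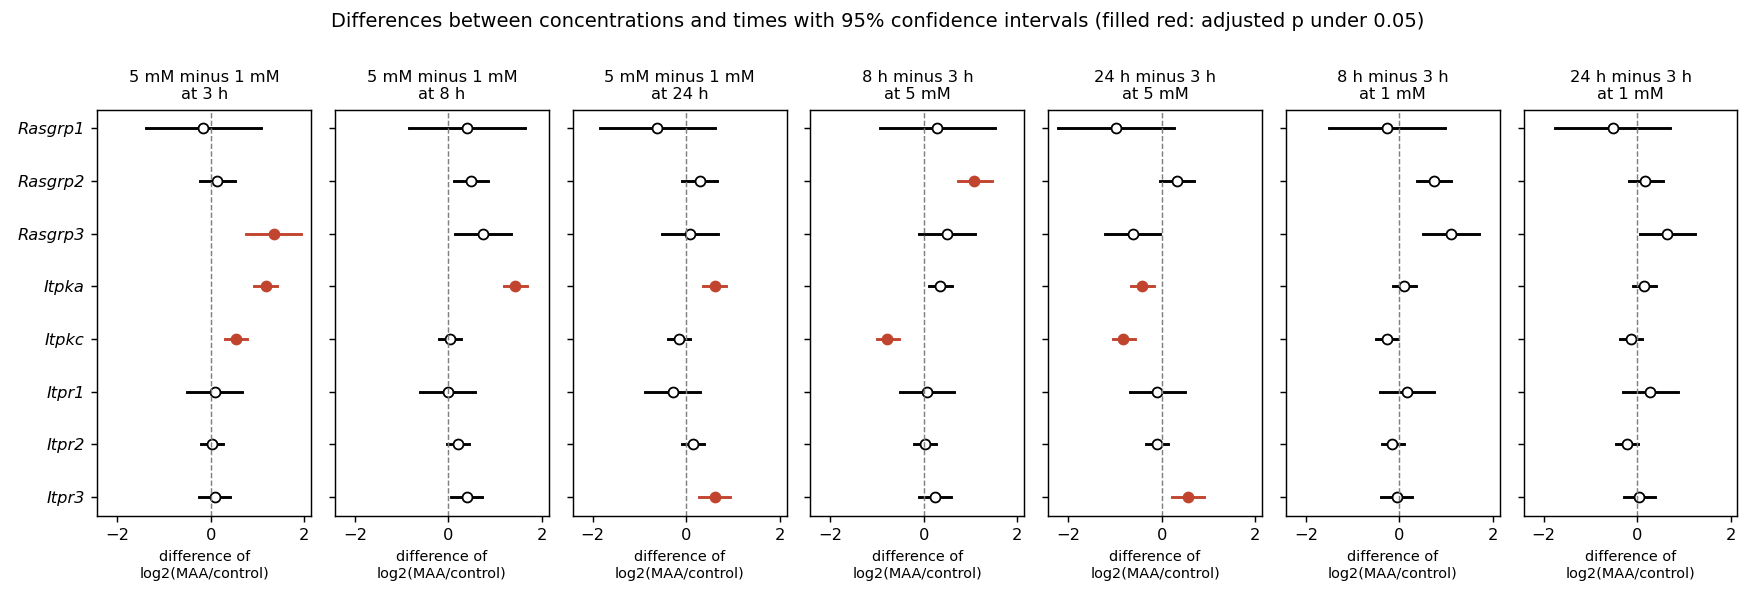
Difference in log2(MAA/control) between concentrations or times (x axis) for the brightest probe of each gene (y axis), with 95% confidence intervals from limma; filled red marks an adjusted p under 0.05. Itpka is to the right of 0 in all 3 comparisons of concentrations, and Itpkc to the left at 8 h and 24 h against 3 h of 5 mM.

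Over time at 5 mM, Rasgrp2 rose from 3 h to 8 h, Itpkc fell back after 3 h, Itpr3 rose to 24 h and Itpka declined from 3 h to 24 h. The Rasgrp2 ratio was 1.08 higher at 8 h than at 3 h (SE 0.157, limma adjusted p = 0.0132), and within slide 3 it was 1.24 higher. At 1 mM the increase was 0.74 (95% confidence interval 0.37 to 1.11, limma adjusted p = 0.208). From 3 h to 24 h at 5 mM, Rasgrp2 differed by 0.32 (-0.04 to 0.69), so that its 24 h ratio was not separated from that of 3 h. The Rasgrp2 increase passed in 9 of 12 fits with 1 array left out and was lost, at 0.58 (limma adjusted p = 0.379), when both Rasgrp2 probes were averaged.

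Itpkc fell by 0.78 from 3 h to 8 h (SE 0.101, limma adjusted p = 0.00986) and by 0.82 from 3 h to 24 h (SE 0.101, limma adjusted p = 0.00244), and the decrease to 24 h passed in 12 of 12 fits with 1 array left out. Within slides 1 and 3, the 24 h minus 3 h difference of Itpkc was -0.84 and -0.80. Itpka fell by 0.41 from 3 h to 24 h at 5 mM (SE 0.106, limma adjusted p = 0.037), with -0.58 within slide 1 and -0.25 within slide 3, and this passed in 2 of 12 fits with 1 array left out. It did not pass after normexp and loess (-0.38, limma adjusted p = 0.208) or after centring (-0.53, limma adjusted p = 0.0649). Itpr3 increased by 0.57 over the same interval (SE 0.145, limma adjusted p = 0.0368), with 0.64 and 0.50 within the slides, and passed in 4 of 12. After centring, the Itpr3 increase was 0.45 and did not pass (limma adjusted p = 0.123). Of all probes, 5.1% differed between 3 h and 8 h and 15.8% between 3 h and 24 h at 5 mM. At 1 mM, no member passed the test between times. Of all probes, 1.85% did between 3 h and 24 h and 0% between 3 h and 8 h, where 3538 probes had an unadjusted limma p under 0.05.

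Signals of the separate channels, put on 1 scale over all arrays by Aquantile normalization, showed how control cells themselves changed with time. They are given without a test, since the control RNA of a time may be the same on several arrays. The Rasgrp2 control signal on the log2 scale was 8.06 to 8.34 at 3 h, 8.09 to 8.32 at 8 h and 9.65 to 9.72 at 24 h, over 4 arrays each. Its mean MAA signal at 5 mM was 9.45, 10.65 and 11.27, so that the smaller ratio at 24 h went with a higher control signal and not with a lower MAA signal.

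For Rasgrp3, the control was well above background on 0 of 4 arrays at 3 h, 3 of 4 at 8 h and 4 of 4 at 24 h, with medians of 1.86, 3.83 and 5.86. The mean 5 mM MAA signal of Rasgrp3 was 3.27, 5.61 and 6.44. Itpr2 rose likewise in control cells, from 10.02 to 10.25 at 3 h to 12.23 to 12.33 at 24 h by its brightest probe, with 5 mM means of 10.48 and 12.54 at those times. The control signal of Itpka moved the other way, with medians of 8.82 at 3 h, 8.45 at 8 h and 8.32 at 24 h. At 8 h it was split, with 8.27 and 8.1 on the 1 mM arrays and 8.75 and 8.62 on the 5 mM arrays, beside 8.7 to 8.93 at 3 h. The 5 mM means of Itpka were 11.09, 11.22 and 10.17. For Rasgrp3 and Itpr2 the control ranges of 3 h and 24 h did not overlap, and neither did those of Itpka. Itpkc varied by less than 0.3 in control cells, between 8.19 and 8.47.

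**Figure D3:**
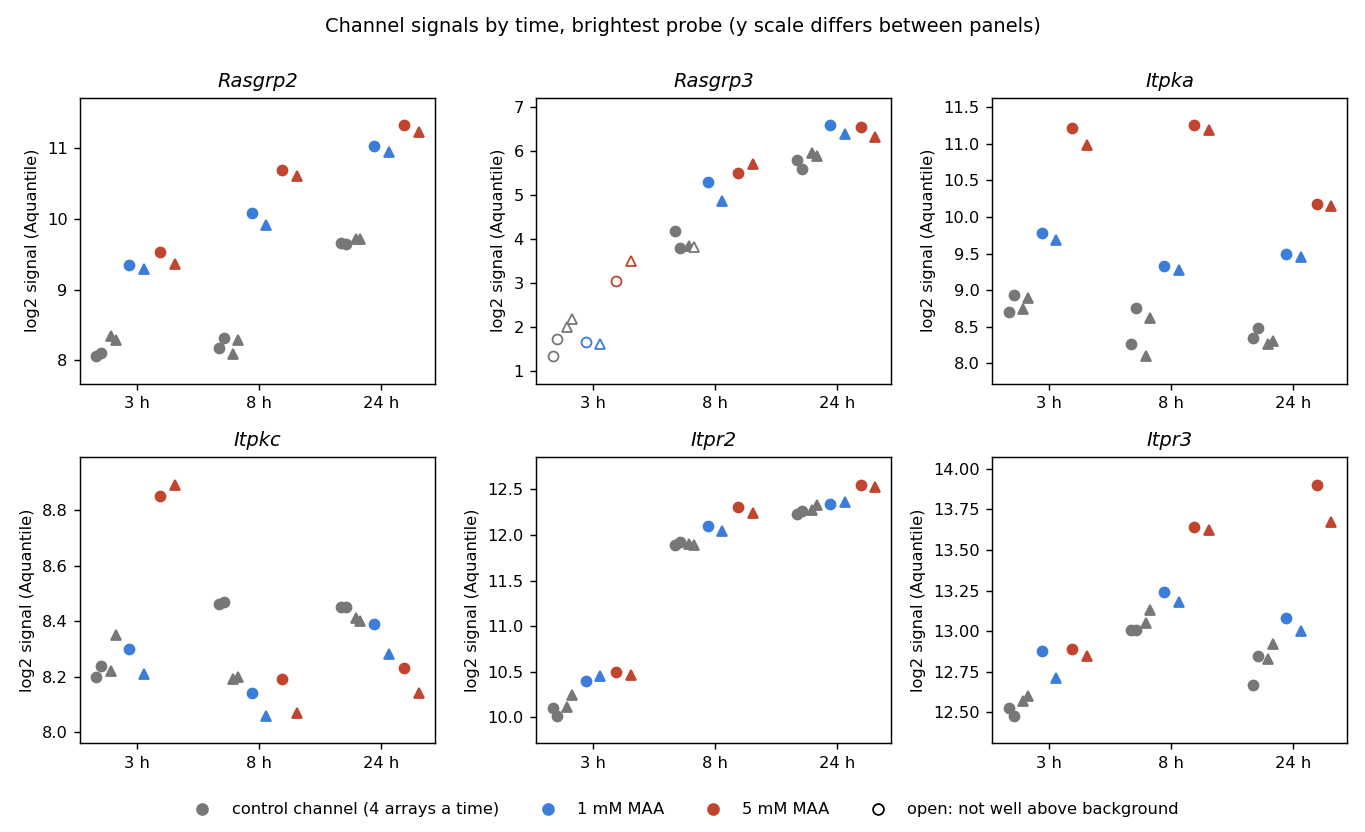
Log2 signal of each channel after Aquantile normalization (y axis) by time (x axis) for the brightest probe of 6 genes; grey is the control channel, blue 1 mM and red 5 mM MAA, circles replicate 1, triangles replicate 2, and open symbols are not well above background. Rasgrp2, Rasgrp3 and Itpr2 control signals are highest at 24 h, and the 5 mM signal of Itpkc stands above control at 3 h only.

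The patterns most like those of Rasgrp2 and Itpka were sought among 10610 genes with a probe well above background in at least 1 channel of all 12 arrays, by the root mean square difference of the log2 ratios over the 12 arrays. For Rasgrp2, the 5 nearest were Car14 (0.366), Lims2 (0.373), Kcnab3 (0.387), Gpr162 (0.412) and Matn3 (0.415). Car14, a membrane carbonic anhydrase, had condition means of 0.99, 2.09 and 1.5 at 5 mM 3, 8 and 24 h and 0.96, 1.69 and 1.79 at 1 mM. For Itpka, they were Kifc2 (0.290), Csdc2 (0.294), Smtnl2 (0.315), Kank3 (0.366) and Ccn2 (0.369). Kifc2, a kinesin, had 2.14, 2.12 and 1.53 at 5 mM and 1.41, 0.92 and 1.02 at 1 mM. By the same measure, Rasgrp2 and Itpka differed from each other by 0.512.

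Other genes of the pathway were read from 8 lists with 160 genes, of which 136 had a probe. At 5 mM 3, 8 and 24 h, 6, 7 and 8 of the 136 were called up, 4.41%, 5.15% and 5.88%, and 2, 2 and 0 were called down. The median log2 ratio of the 136 genes was 0.05, 0.14 and 0.14 beside -0.10, -0.04 and 0.03 for all probes. At 1 mM, 6, 4 and 4 were called up, 4.41%, 2.94% and 2.94%, and none down. Over the 3 times of 5 mM, 12 genes were called up and 4 down, and after normexp and loess 7 and 1. Casq2 was in both the 12 and the 4, as it was called down at 3 h and up at 24 h. These are counts of 1 probe per gene, beside the percentages of all probes given above.

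Upstream of the members, the phospholipase C list, whose enzymes produce both messengers, had 2 of 14 genes called up at each 5 mM time and none down. The shares of all probes called up at 5 mM 3, 8 and 24 h were 2.02%, 3.06% and 3.85%. The list had a median ratio of -0.11, 0.01 and 0.24. Plcd1, a calcium-sensitive phospholipase C, was called up in all 6 conditions. Its 5 mM arrays were 1.54 and 1.49 at 3 h, 1.21 and 1.29 at 8 h, and 1.19 and 1.27 at 24 h (limma adjusted p = 1.60e-05, 1.69e-05 and 2.11e-05). Its 1 mM means were 1.16, 0.61 and 0.92. Plcd1 was thus up at both concentrations and all times, as the picked genes were. Plcd3 was called up at 3 h and 8 h of 5 mM (1.29 and 1.13) and Plcg2 at 24 h (1.01, just over the 2-fold threshold). The Plcg2 probe was not well above background on every array.

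Of the diacylglycerol kinases, which remove diacylglycerol, Dgka was called up at all 5 mM times and the other 5 genes in no condition. The Dgka ratios of replicates 1 and 2 were 1.05 and 0.99 at 3 h, 1.21 and 1.22 at 8 h, and 1.14 and 1.26 at 24 h (limma adjusted p = 3.84e-05, 1.42e-05 and 1.69e-05). At 1 mM the means were 0.67, 0.56 and 0.48, of which that at 3 h was called. None of the 19 genes for inositol phosphatases and inositol synthesis, which break down or supply inositol phosphates, was called in any condition. Of all probes, 6.05% were called up at any 5 mM time and 4.64% at any 1 mM time, so that 0 of 19 is near that share.

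The list of family relatives, other inositol phosphate kinases and IP3 receptor partners, had 0, 1 and 2 of 13 genes called up at the 3 times of 5 mM. The shares of all probes called up at these times were 2.02%, 3.06% and 3.85%. Mrvi1, an IP3 receptor-associated substrate of cyclic GMP-dependent kinase, was at 1.51 and 1.40 on the arrays of 8 h and 1.15 and 0.91 at 24 h (limma adjusted p = 0.00161 and 0.00869), and at -0.11 at 3 h. Ip6k3, an inositol hexakisphosphate kinase, was called up at 24 h (1.42 and 1.37 on the arrays, limma adjusted p = 0.00134), with the control well above background on 1 of 2 arrays. Rasgrp4, the remaining RASGRP gene, had ratios of -0.14 to 0.17.

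Downstream in the calcium store and calcineurin list, 2, 1 and 2 of 39 genes were called up and 2, 1 and 0 down at 5 mM. The shares of all probes at these times were 2.02%, 3.06% and 3.85% up and 1.74%, 2.49% and 1.77% down. The genes of the list called down were Casq2 (-1.58) and Nfatc4 (-1.05) at 3 h and Rcan2 (-1.78) at 8 h, and Casq2 was called up at 24 h (1.47). Camkk1 was called up at 3 h of both concentrations (1.09 at 5 mM and 0.69 at 1 mM). Ryr1, the other kind of calcium release channel, was called up in all 6 conditions, but neither channel was well above background at 3 h of either concentration, and the control was so on 0 of 2 arrays at 8 h of 5 mM. At 8 h of 5 mM it was at least 2.41-fold higher, and at 24 h, where both channels were well above background, the arrays gave 1.79 and 1.78 (limma adjusted p = 2.43e-05). In the RAS and RAP cycle list, 1, 2 and 1 of 26 genes were called up and 0, 1 and 0 down. The gene called down was Rasgrf2, at 8 h (-1.04). Rap1gap2 was called up at 8 h of 5 mM (1.2). Rapgef4, a cyclic AMP-activated RAP exchange factor, was called up at 3 h and 8 h of 5 mM, with neither channel well above background at 3 h and at least 2.23-fold higher signal at 8 h, where the MAA channel was well above background on 1 of 2 arrays (limma adjusted p = 0.0133). Rasal1, a RAS GTPase-activating protein, was called up at 24 h, with arrays at 2.00 and 2.45 (limma adjusted p = 0.00516). No gene was called in any condition among the 7 RAF, MEK and ERK kinases and the 12 protein kinases C and D. At any time, 6.05% of all probes were called up at 5 mM and 4.64% at 1 mM. Beside these shares, 0 calls do not set lists this short apart. The median of the RAF, MEK and ERK list was -0.17, -0.23 and -0.03 at 5 mM, beside -0.10, -0.04 and 0.03 for all probes.

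**Figure D4:**
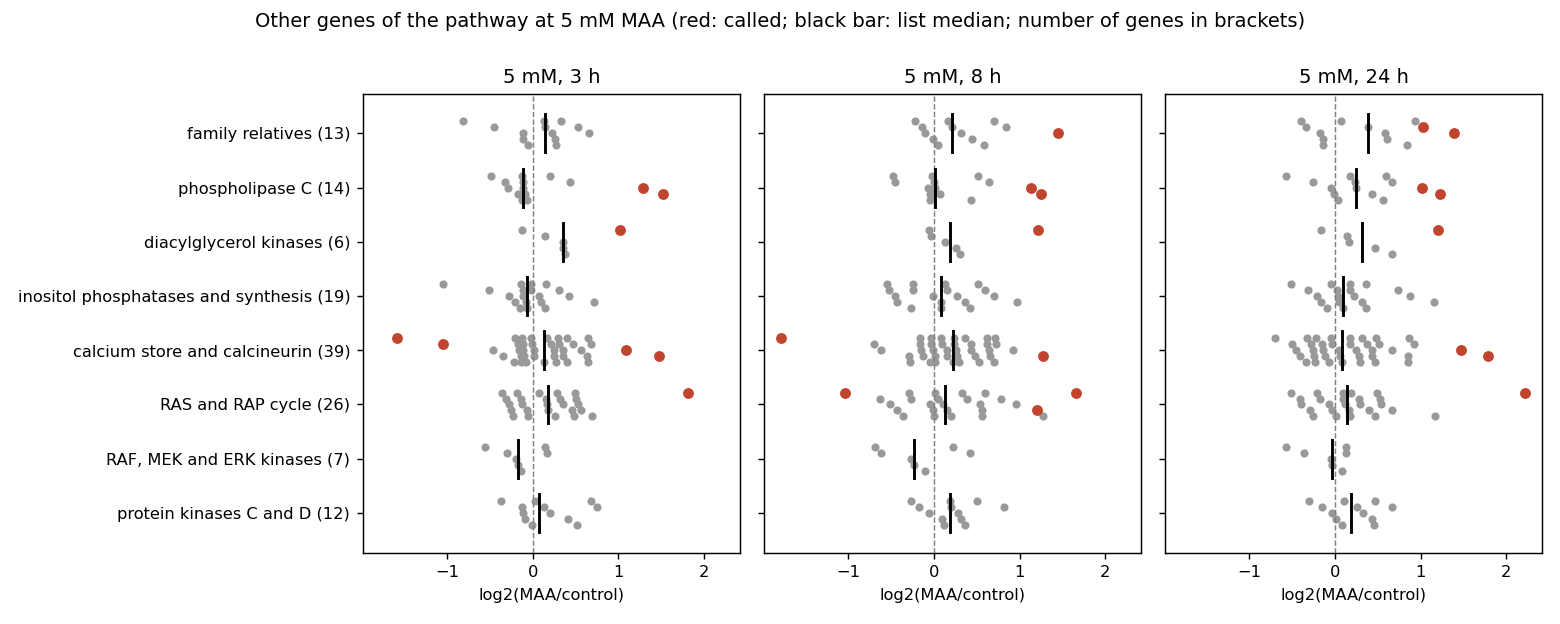
Log2(MAA/control) at 5 mM 3, 8 and 24 h (x axis) for 136 genes in 8 pathway lists (y axis, number of genes in brackets); red marks called genes and black bars list medians. The RAF, MEK and ERK kinases, inositol phosphatases and protein kinases C and D have no called gene. Of all probes, 6.05% were called up at any 5 mM time.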

How the data were processed

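Data were 12 Agilent 2-colour arrays, on which the authors had run Feature Extraction 9.5.3.1. The deposited scanner output holds intensity values that the authors' software had background-corrected and dye-normalized, with log10 ratios and other columns of flags and positions. The deposited series table holds log10 ratios of MAA over control. Log2 ratios were computed from processed intensities without centring, leaving out 124 to 208 outlier spots per array, and repeated spots were averaged to 41174 probes. The gene name column held accessions, so 22147 probes were named through RefSeq, 22072 of them by accession, and 1 Rasgrp2 probe through the study's probe table. All arrays were fitted with limma 3.58.1 (R 4.3.3), 1 coefficient per condition, 6 residual degrees of freedom, and Benjamini-Hochberg adjustment over all probes. Contrasts were called at an adjusted p under 0.05. Well above background were 61.6% to 70.4% of control channel probes. Figures were drawn with Python and matplotlib.

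Named were all members by every probe and the 5 nearest patterns. From each list, up to 4 genes called at all 5 mM times were named, or else up to 2 called at any. Plcd3, Plcg2, Rasgrp4, Camkk1, Rap1gap2 and the pathway genes called down were named after their values were seen. The brightest probe stands for a gene. The members and lists were chosen with earlier results of these data known. The steps were tested on simulated data with noise drawn independently for each array, so that deviations shared by arrays of 1 dye orientation were not simulated. Separate pools of treated cells underlie the 2 arrays of a condition; whether control pools were separate is not given in the sources used here. Alternatives were normexp (offset 50) with loess, scanner and series log ratios, centring, dim probes removed, outlier spots kept, replicate or slide blocks, each array left out, mean of probes, other thresholds, and 1 concentration alone. qPCR was not analysed here.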

Additional observations from a re-analysis of the deposited data

Results flagged for a closer look

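The response of 5 member genes differed between concentrations or times at a limma adjusted p below 0.05, and each difference in log2 MAA/control is given here once more. Between 5 mM and 1 mM, Itpka differed by 1.18 at 3 h, 1.43 at 8 h and 0.61 at 24 h, Itpkc by 0.54 at 3 h and Itpr3 by 0.61 at 24 h. The Rasgrp3 difference of 1.35 at 3 h rests on signals not well above background and was 0.09 (limma adjusted p = 0.86) after normexp and loess. Between times at 5 mM, Rasgrp2 was 1.08 higher at 8 h than at 3 h, and Itpr3 was 0.57 higher at 24 h than at 3 h. Against 3 h of 5 mM, Itpka was at -0.41 at 24 h, and Itpkc at -0.78 at 8 h and -0.82 at 24 h. After centring each array on its median, the concentration differences of Itpka at 24 h, Itpkc and Itpr3 did not pass. Neither did the 24 h minus 3 h differences of Itpka and Itpr3. Itpka and Itpkc encode enzymes with the same reaction, and their 5 mM ratios took different courses: Itpka stayed above 1.6 on all 6 arrays, whereas Itpkc was above 0.5 at 3 h and below 0 at 8 h and 24 h. The difference between the courses of these genes was not tested.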

How the results depend on the processing

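Of the 6 genes not picked on their ratios, 1 was called up at 5 mM and 1 at 1 mM. These counts became 4 and 2 with no fold threshold, where 19.5% and 9.48% of all probes passed upward, and 0 and 0 after normexp and loess. The member genes that differed between concentrations and those that differed between times were 4 each, and 2 and 2 after centring each array on its median. Those left after centring were Itpka and Rasgrp3 between concentrations, and Itpkc and Rasgrp2 between times. With each array left out in turn, the counts ranged from 1 to 2 called up and 0 to 1 called down at 5 mM, and from 0 to 1 up and 0 to 0 down at 1 mM. They ranged from 1 to 1 for the difference between concentrations (Itpka) and from 1 to 4 for that between times. The gene called down was Rasgrp1 at 5 mM 24 h (-1.05), without either 5 mM 8 h array, on a probe not well above background. For pathway genes, normexp and loess gave 7 up and 1 down at 5 mM, against 12 and 4, and 4 up at 1 mM, against 9. The remaining alternatives kept the counts within 1.5 times, and no member ratio that was called changed sign in any alternative. The cause of these changes was not tested. With the replicate number as a block, which is also the dye orientation, 5 genes differed between concentrations, with Rasgrp2 added, and 4 between times, and the counts called stayed at 1 up at each concentration and 0 down. Deviations from the condition means had correlations over 0.1 in 14 of 15 pairs of conditions (median 0.376, highest 0.514), so that most arrays of 1 dye orientation deviated together. The lowest of these correlations was 0.075. The main fit had no term for the replicate number, so that this shared deviation stayed in its residual spread. Among probes above background in both channels of all arrays, 11 of 15 were over 0.1 (-0.185 to 0.759). Signal over background limits Rasgrp1, the second Rasgrp2 probe and Rasgrp3 at 3 h, for which a change could not be measured.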

Other observations

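Replicate 1, with MAA-treated RNA in the green channel, had the higher log2 ratio in 6 of 6 conditions for 8 of the 14 member probes, among them those of Itpr3 (by a mean of 0.19), the brightest of Rasgrp2 (0.19) and both of Itpr1. For Itpka and Itpkc, the mean of replicate 1 minus replicate 2 was -0.01, and replicate 1 was higher in 2 and 4 of 6 conditions. Both orientations were averaged in each condition.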
